A study of Mus musculus with 4 samples.

Results

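The genes of glycolysis and of the response to low oxygen were followed in 4TO7 mouse mammary tumour cells that overexpressed the microRNA cluster miR-23b/27b/24. The set holds 35 genes, listed by name for their textbook roles in oxygen sensing, glucose uptake, glycolysis, lactate and pyruvate handling, mitophagy, and matrix, acid and stress responses. Of these, 34 were found on the array by gene name or RefSeq identifier and belong to the 20500 genes compared, and each was represented by its brightest probe. The exception was Gapdh, whose probe is described apart below. The miR-23b/27b/24 group was a stable line made with the retroviral vector pMSCV carrying the cluster, and the vector group was a stable line carrying pMSCV-puro alone. Each group had 2 arrays, which the series calls transfection replicates. Nothing in the labels says how many clones each line came from, so p-values measure the spread between these arrays. Both groups share the parental line, from a BALB/cfC3H mouse, and the same serum-containing growth medium, and the labels name no low-oxygen treatment. Each array compared 4TO7 RNA in the Cy5 channel with Universal Mouse Reference RNA, pooled from 11 lines, in the Cy3 channel, so every value below is the log2 ratio of cells over reference.

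Cells sense oxygen through prolyl hydroxylases of the Egln family, which mark the alpha subunits of the hypoxia-inducible factors (HIF), Hif1a and Epas1, for destruction while oxygen is present. When oxygen falls, the stabilised factors bind short DNA elements and raise transcription of glucose transporters, most glycolytic enzymes, lactate dehydrogenase A, the pyruvate dehydrogenase kinase Pdk1, carbonic anhydrase 9 and secreted products such as adrenomedullin. Tumour cells, mammary carcinoma cells among them, often run glycolysis at a high rate even with oxygen present, so these genes are widely used to describe the metabolic state of a tumour.

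Among the 34 genes measured, 3 were lower and 1 was higher in miR-23b/27b/24 cells than in vector cells. Ndrg1, a stress-induced gene linked to differentiation and to metastasis suppression, was 6.19-fold lower, and Adm, which encodes the secreted peptide adrenomedullin, was 3.58-fold lower. Hk1, a hexokinase that phosphorylates glucose in most tissues, was 1.77-fold lower, while Eno1, the main enolase, was 1.93-fold higher. The 4 calls at an adjusted p under 0.05 (limma, Benjamini-Hochberg over all genes) made 11.8% of the 34, against 9.4% of all genes tested, a share near the background. Calls in the higher direction were 4.77% of all genes and calls in the lower direction 4.63%. In RNA of a bulk culture, fewer cells expressing a gene and less RNA per cell cannot be told apart.

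The set as a whole was centred near 0. Its median log2 fold change was -0.07, against -0.03 over the 20500 genes, with 16 of the 34 above 0 and 18 below. For 20 of 34 genes (58.8%) the 2 groups had no overlap between arrays, against 59.8% of all genes. Of these 20, 7 were higher and 13 lower, and over all genes 27.4% were without overlap and higher and 32.3% without overlap and lower. A difference of at least 2-fold without overlap was seen for 3 of the 34, against 8.14% of all genes. At an unadjusted p under 0.05, limma called 9 of 34 (26.5%), against 27.7% of all genes.

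Every one of the 34 probes was well above background in Cy5 and in Cy3 on all 4 arrays, and none was saturated. On each array between 69.8% and 74.8% of the 41174 probes were well above background in Cy5. Across genes, the log2 ratios had a correlation of 0.952 for the pair of miR-23b/27b/24 arrays and 0.887 for the vector pair. Of 8 epithelial markers, 7 were well above background on all 4 arrays. The exception, Cldn4, was so on 2 arrays. Its log2 ratios were -0.02 and 0.07 in miR-23b/27b/24 cells, against 3.16 and 3.63 in vector cells. Also well above background on all 4 arrays were 6 of 7 mesenchymal, 5 of 6 leukocyte, 2 of 4 endothelial and 2 of 3 adipocyte markers. Detection therefore cannot single out the labelled tumour type. Among the epithelial markers, 5 of 8 were called lower in miR-23b/27b/24 cells. Their summed Cy5 intensity was 203631 and 228306 on the miR-23b/27b/24 arrays, against 595666 and 501859 on the vector arrays. The 6 leukocyte markers summed to 2618 and 2445 on the miR-23b/27b/24 arrays and to 5339 and 5307 on the vector arrays. Of the 5 tested, Cd68 alone was called, with a log2 fold change of -1.68, while Ptprc, the common leukocyte antigen, was at 0.02. The 7 mesenchymal markers summed to 267499 and 224530 in miR-23b/27b/24 cells, against 272342 and 178910 in vector cells, endothelial markers to at most 424.5 and adipocyte markers to at most 2196 on any array. The part of these marker differences in the results on glycolysis and hypoxia genes was not tested.

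**Figure D1:**
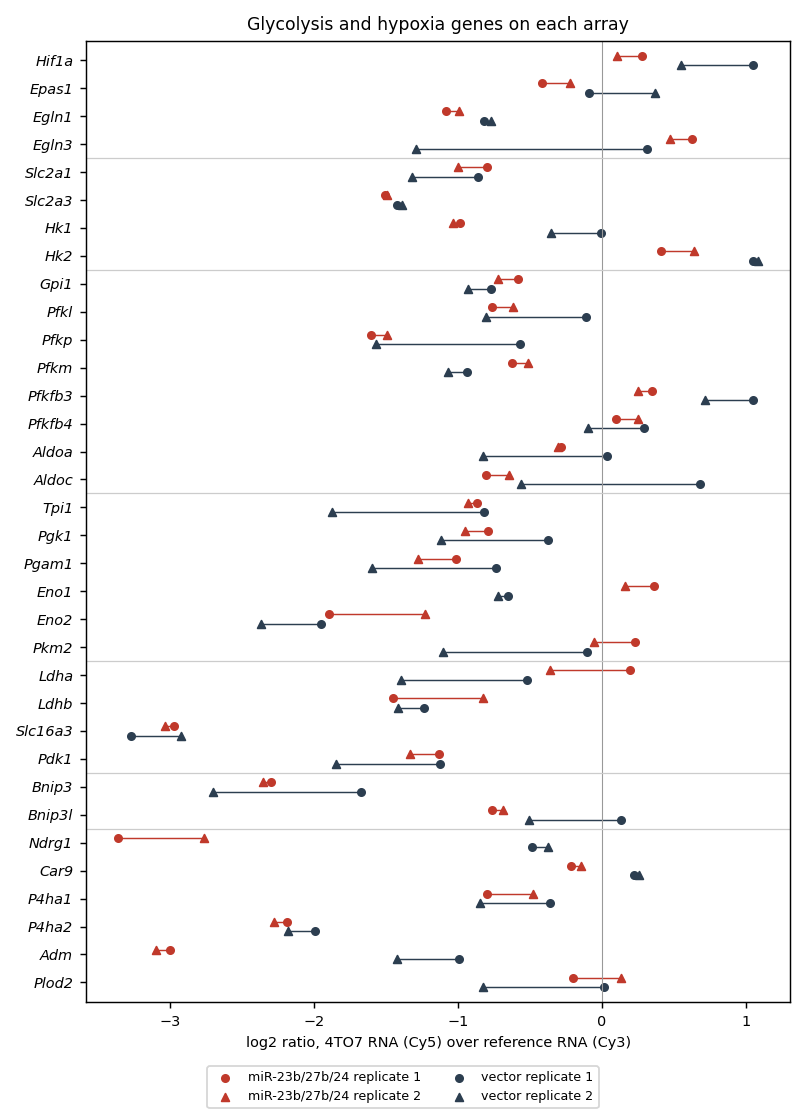
Log2 ratio of 4TO7 RNA over reference RNA for the 34 genes, ordered by role and separated by grey lines. Red points are the 2 miR-23b/27b/24 arrays, dark points the 2 vector arrays, circles replicate 1 and triangles replicate 2, and each line joins the arrays of a group. Ndrg1 and Adm stand far to the left in miR-23b/27b/24 cells, and for many glycolytic genes the vector arrays lie apart and enclose the miR-23b/27b/24 arrays.

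Ndrg1 was the largest change of the set. Its log2 ratio was -3.36 and -2.76 on the miR-23b/27b/24 arrays, against -0.49 and -0.37 on the vector arrays. All 4 arrays separated by group, with more than 2 log2 units between the nearest values. The background-corrected Cy5 intensity was 8862 and 12610 in miR-23b/27b/24 cells and 58269 and 67891 in vector cells, while the reference channel stayed between 84517 and 92984 on the 4 arrays. The log2 fold change was -2.63 ± 0.23 (SE, n = 2 per group, limma adjusted p = 0.00792).

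Adm had log2 ratios of -3.00 and -3.10 in miR-23b/27b/24 cells, against -0.99 and -1.42 in vector cells. Again the groups did not overlap. Its background-corrected Cy5 intensity was 709.8 and 615.5 in miR-23b/27b/24 cells, against 3115 and 2550 in vector cells. The log2 fold change was -1.84 ± 0.18 (SE, n = 2 per group, limma adjusted p = 0.0108). With either miR-23b/27b/24 array left out the call was lost, at an adjusted p of 0.0825 without replicate 1 and 0.0853 without replicate 2.

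The other genes of the matrix, acid balance and stress group did not pass the test. Car9, a membrane carbonic anhydrase, came closest, at -0.22 and -0.15 in miR-23b/27b/24 cells against 0.22 and 0.26 in vector cells. Its 4 arrays separated by group, with a log2 fold change of -0.42 ± 0.12 (SE, n = 2 per group, limma adjusted p = 0.0957). The collagen prolyl hydroxylase subunits P4ha1 and P4ha2 and the lysyl hydroxylase Plod2, which modify collagen in the endoplasmic reticulum, had log2 fold changes of -0.04, -0.15 and 0.37.

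Oxygen sensing showed no called gene among 4. Hif1a, the oxygen-regulated HIF subunit, had log2 ratios of 0.28 and 0.10 in miR-23b/27b/24 cells and 1.05 and 0.55 in vector cells, a log2 fold change of -0.61 (95% interval -1.14 to -0.07, limma adjusted p = 0.144). The second alpha subunit, Epas1, had a log2 fold change of -0.46 (-0.97 to 0.05). It was dim, with a background-corrected Cy5 intensity of 92.5 and 116.5 in miR-23b/27b/24 cells and 123.4 and 302.5 in vector cells. Its log2 fold change varied with the setting, at -0.83 with the authors' deposited values and -0.23 without vector replicate 2. For both genes the miR-23b/27b/24 arrays lay below both vector arrays. Egln1, the main HIF prolyl hydroxylase, had a log2 fold change of -0.24.

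Egln3, a prolyl hydroxylase that HIF itself induces, was the only gene whose groups separated by at least 2-fold without passing the test. Its log2 ratio was 0.63 and 0.47 in miR-23b/27b/24 cells, against 0.31 and -1.29 in vector cells. The miR-23b/27b/24 arrays lay just above vector replicate 1 and far above vector replicate 2. The log2 fold change was 1.04 ± 0.53 (SE, n = 2 per group, limma adjusted p = 0.287, 95% interval -0.34 to 2.42).

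Glucose entry covers the transporters Slc2a1 (GLUT1) and Slc2a3 (GLUT3) and the hexokinases Hk1 and Hk2, which phosphorylate glucose. Hk1 had log2 ratios of -0.98 and -1.03 in miR-23b/27b/24 cells, against -0.01 and -0.35 in vector cells. These did not overlap, and the log2 fold change was -0.83 ± 0.16 (SE, n = 2 per group, limma adjusted p = 0.0462). The call depended on the probe and on the setting. Of 6 Hk1 probes 5 were bright enough to keep, and the other 4 gave log2 fold changes between -0.44 and -0.18. With the mean over probes in place of the brightest, Hk1 had a log2 fold change of -0.40 and an adjusted p of 0.104, and the call was missed in 9 of 14 alternatives. Hk2, the hexokinase prominent in tumours and induced by HIF, had log2 ratios of 0.41 and 0.64 in miR-23b/27b/24 cells and of 1.05 and 1.09 in vector cells, a log2 fold change of -0.54 (-0.90 to -0.18, limma adjusted p = 0.0790). Neither transporter passed the test, with log2 fold changes of 0.19 for Slc2a1 (-0.32 to 0.70) and -0.10 for Slc2a3 (-0.40 to 0.21). The Slc2a3 value varied with the setting, at -0.63 when no local background was replaced (limma adjusted p = 0.234). The mean over the kept probes carrying its name was -0.29 (limma adjusted p = 0.252). In the deposited annotation the second of these, matched by symbol, lies on chromosome 17 and the brightest on chromosome 6. That mean may therefore mix more than 1 locus.

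**Figure D2:**
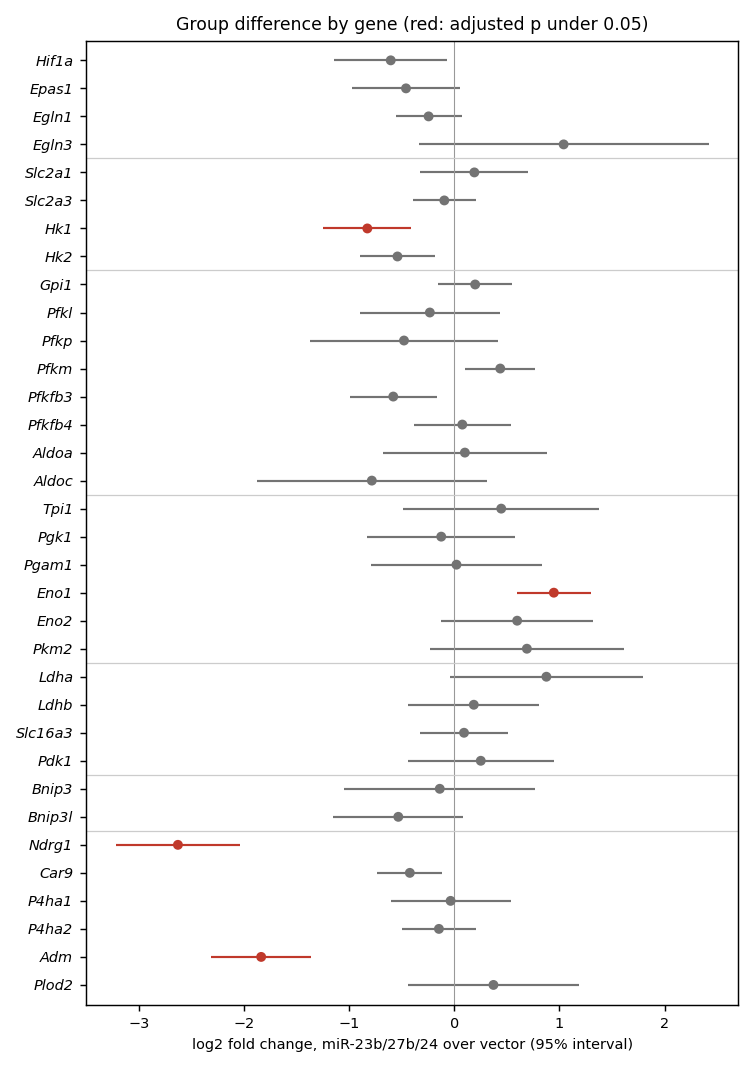
Log2 fold change of miR-23b/27b/24 over vector cells for each of the 34 genes, with its 95% interval, in the same order of roles. Red marks the 4 genes with an adjusted p under 0.05 (Hk1, Eno1, Ndrg1 and Adm). The other 30 intervals are grey, and most of them cross 0.

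None of the 8 genes of upper glycolysis passed the test, and they split evenly, with 4 above 0 and 4 below, although Gpi1 and Aldoa turned to -0.0017 and -0.18 with median centring in place of loess. The largest change was that of Aldoc, the brain-type aldolase. Its log2 ratio was -0.81 and -0.65 in miR-23b/27b/24 cells, against 0.68 and -0.57 in vector cells. The groups did not overlap, yet vector replicate 2 lay close to the miR-23b/27b/24 arrays, and the log2 fold change was -0.79 (-1.88 to 0.31, limma adjusted p = 0.307). The phosphofructokinase subunits, which catalyse the committed step, were at -0.23 for Pfkl, -0.48 for Pfkp and 0.44 for Pfkm in log2 fold change, and Pfkm had the narrowest interval (0.10 to 0.77). Pfkfb3 and Pfkfb4 make the activator fructose 2,6-bisphosphate. Pfkfb3 had a log2 fold change of -0.58 (-0.996 to -0.17, limma adjusted p = 0.0920) and Pfkfb4 one of 0.08. The other kept probes of Pfkfb3 gave -0.18 and -0.16, and the mean over its probes was -0.31 (limma adjusted p = 0.230). The isomerase Gpi1 was at 0.20 and the main aldolase Aldoa at 0.10.

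Lower glycolysis, from Tpi1 to pyruvate kinase, had 1 called gene of 6, and 5 of the 6 log2 fold changes were above 0, Pgam1 turning to -0.20 with median centring. Eno1 had log2 ratios of 0.36 and 0.16 in miR-23b/27b/24 cells, against -0.65 and -0.72 in vector cells. The groups were well apart, and both gaps between replicates were small. The log2 fold change was 0.95 ± 0.13 (SE, n = 2 per group, limma adjusted p = 0.0240). The call was lost when no local background was replaced (adjusted p = 0.0523), with median centring in place of loess (0.0530) and without miR-23b/27b/24 replicate 1 (0.187) or 2 (0.119). In the deposited annotation its 60-base probe spans chr4:149233567-149233792 on the plus strand of mm7, a span longer than the probe, so the probe does not align there as 1 unbroken run. The probe is shown because Eno1 has processed copies in the mouse genome that such a sequence may not tell apart.
Eno1 probe: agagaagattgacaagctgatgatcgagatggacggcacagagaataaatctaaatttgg

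The second enolase, Eno2, and pyruvate kinase Pkm2 (Pkm in current annotation) also separated by group, with log2 fold changes of 0.60 (-0.12 to 1.32) and 0.69 (-0.23 to 1.61). For Pkm2 the log2 ratio was 0.23 and -0.06 in miR-23b/27b/24 cells, against -0.10 and -1.10 in vector cells, so vector replicate 1 lay just under the miR-23b/27b/24 arrays. Tpi1, Pgk1 and Pgam1, which catalyse the steps between the aldolase and the enolases, had log2 fold changes of 0.45, -0.12 and 0.02, and their groups overlapped. Gapdh, the dehydrogenase between Tpi1 and Pgk1, was not matched by name. A dim probe labelled LOC14433, a number that is Gapdh's gene ID in the RefSeq table, had log2 ratios of 0.41 and -0.07 in miR-23b/27b/24 cells, against -0.58 and -0.81 in vector cells. Its log2 fold change was 0.86 ± 0.21 (SE, n = 2 per group, limma adjusted p = 0.0710), and it is counted in no total here because Gapdh has many near-identical processed copies in the mouse genome.

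In lactate and pyruvate handling no gene of 4 passed the test, and all 4 log2 fold changes were above 0, with Slc16a3 turning to -0.35 when no local background was replaced. Ldha, the subunit of lactate dehydrogenase that favours lactate formation, had log2 ratios of 0.20 and -0.36 in miR-23b/27b/24 cells, against -0.52 and -1.39 in vector cells. The groups did not overlap, and both had a gap of more than 0.5 log2 units between replicates. The log2 fold change was 0.88 (-0.04 to 1.79, limma adjusted p = 0.196), and a second Ldha probe gave 0.89. Ldhb, the subunit that favours pyruvate formation, was at 0.19, the lactate exporter Slc16a3 (MCT4) at 0.09 and Pdk1, the kinase that inhibits pyruvate dehydrogenase, at 0.25. A second Pdk1 probe gave 0.75, and the mean over both probes was 0.50 (limma adjusted p = 0.259). Of the mitophagy receptors, Bnip3l had a log2 fold change of -0.53 (-1.15 to 0.08) and Bnip3 one of -0.14 (-1.05 to 0.77). On the single arrays Bnip3l was at -0.76 and -0.68 in miR-23b/27b/24 cells and at 0.13 and -0.51 in vector cells, without overlap.

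Of the 34 genes, 16 had more than 1 kept probe. Among the 21 other kept probes, 18 gave a log2 fold change of the same sign as the brightest probe. The 3 exceptions were probes of Gpi1 (-0.12), P4ha1 (0.01) and Pfkp (0.52). These counts include the Slc2a3 probe annotated to chromosome 17.

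For many of these genes the vector arrays differed from each other. Replicate 1 minus replicate 2 had a median of 0.04 in log2 over the 34 genes in miR-23b/27b/24 cells and of 0.44 in vector cells. The same medians over all genes were 0.00 and 0.01. In vector cells the gap was above 0 for 27 of 34 genes (79.4%), against 51.6% of all genes, and it reached at least 0.5 for 14 (41.2%), against 8.82%. All 14 measured genes of upper and lower glycolysis had a positive gap, that is, a higher log2 ratio on vector replicate 1. A gap of at least 1 in size was found for 5 genes (14.7%), against 3.43% of all genes, namely Egln3 at 1.60, Aldoc at 1.25, Tpi1 at 1.05, Bnip3 at 1.03 and Pfkp at 1.00. No test was made of this difference, since genes of a pathway are not independent and the set was listed with that gap in view.

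**Figure D3:**
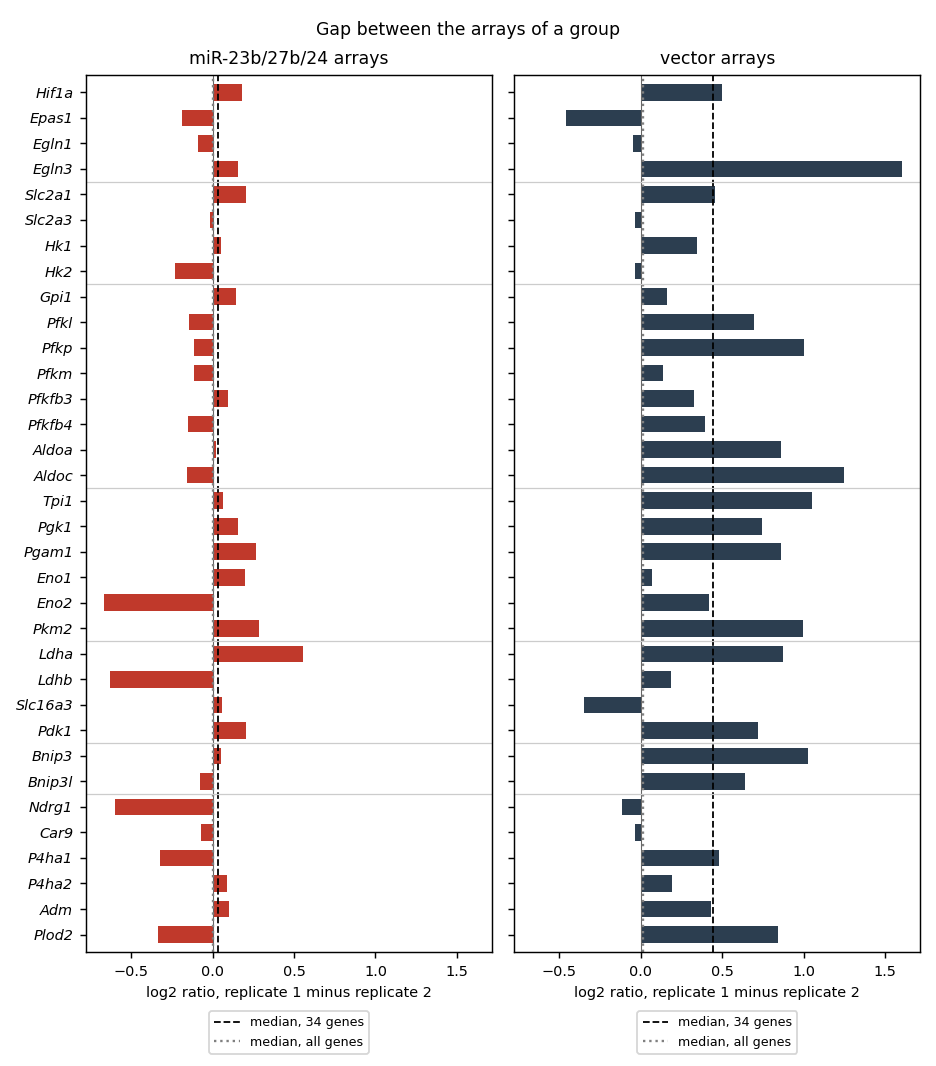
Gap between the arrays of a group, replicate 1 minus replicate 2 in log2 ratio, for the 34 genes in miR-23b/27b/24 cells (left panel, red bars) and in vector cells (right panel, dark bars). The dashed line is the median of the 34 genes and the dotted line that of all 20500 genes. In vector cells the bars point right for 27 genes, and the dashed line stands at 0.44 against 0.01 for the dotted one.

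The direction of the vector gap was the same under all 10 background, scaling, filter and probe settings, with 27 to 31 of 34 genes above 0 and a median between 0.43 and 0.71. The deposited values and the Feature Extraction log ratio were counted as separate settings, though both gave the same median of 0.43. For 18 of 34 genes (52.9%) the vector gap was larger than the difference between the groups, against 45.2% of all genes, and for 10 (29.4%) both miR-23b/27b/24 arrays lay between the vector arrays, against 12.8%. Growth-state genes moved with it. The 12 S phase and mitosis genes had a vector gap above 0 in 12 of 12 cases (100%, against 51.6% of all genes), with a median of 0.89. In miR-23b/27b/24 cells their gap was above 0 in 11 of 12 (91.7%, against 50.3% of all genes), with a median of 0.18. Their median log2 fold change between the groups was 1.08, with 2 of 12 called (16.7%, against 9.4% of all genes). Their summed Cy5 intensity was 402927 and 335997 on the miR-23b/27b/24 arrays, against 225872 and 119854 on the vector arrays. Their part in the gap of the glycolysis genes was not tested.

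The called genes depended on which vector array was used. Without vector replicate 1, 10 of 34 genes were called, 6 higher and 4 lower, and the median log2 fold change was 0.23. The 6 added to the original 4 were Egln3 (1.84), Ldha (1.31), Pkm2 (1.19), Tpi1 (0.97), Plod2 (0.79) and Epas1 (-0.69). Without vector replicate 2, 10 were again called, but 1 higher and 9 lower, and the median was -0.24. Here the 6 added were Aldoc (-1.41), Pfkp (-0.98), Hif1a (-0.85), Bnip3l (-0.85), Pfkfb3 (-0.75) and Bnip3 (-0.65). The share of all genes called was 21.9% without vector replicate 1 and 12.8% without vector replicate 2. Ndrg1, Adm, Hk1 and Eno1 were called in both cases. With either miR-23b/27b/24 array left out, Ndrg1 was the 1 gene of the set still called.

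**Figure D4:**
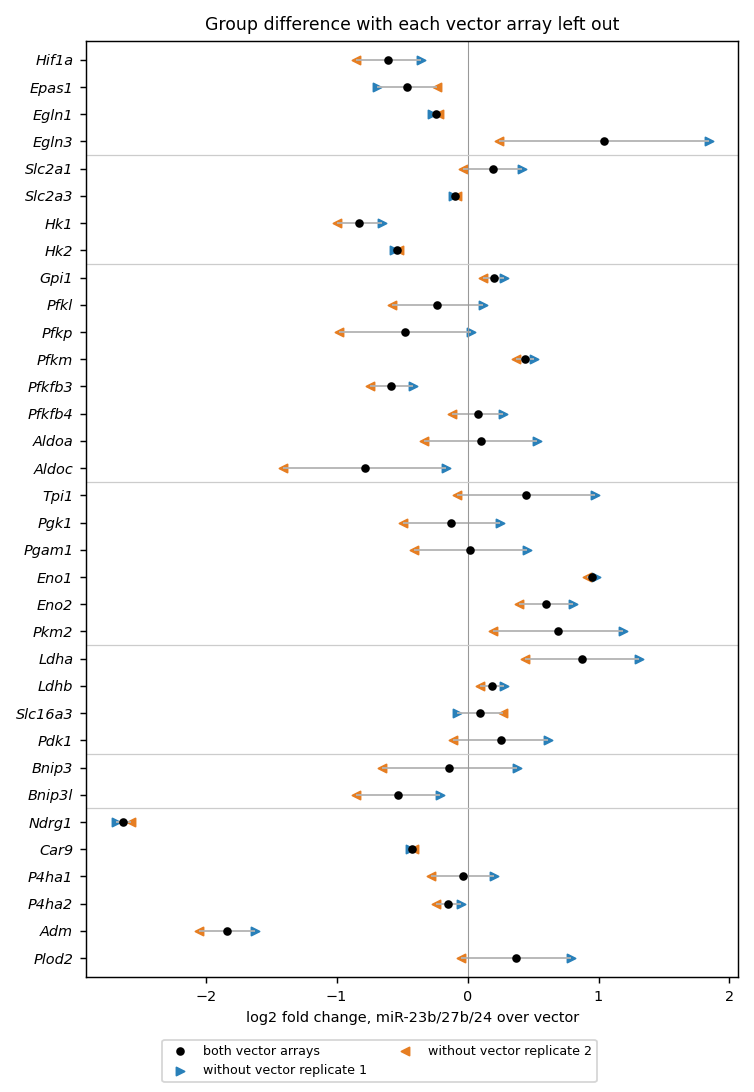
Log2 fold change of miR-23b/27b/24 over vector cells for the 34 genes with both vector arrays (black), without vector replicate 1 (blue, right-pointing) and without vector replicate 2 (orange, left-pointing). Ndrg1, Eno1, Car9 and Hk2 hardly move, while Egln3, Aldoc, Tpi1 and Bnip3 spread widely, and the 10 calls are 6 higher and 4 lower in the first case and 1 higher and 9 lower in the other.

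The promoters of the set were searched for the core of the HIF-binding element, as ACGTG and as GCGTG, on both strands, in the 250 bases before each start site of RefSeq (GRCm38.p6). Of the 34 genes, 29 had an entry, with 42 start-site windows, and Ndrg1, Epas1, Slc2a3, Bnip3l and Plod2 had none. ACGTG was found in 47.6% of the 42 windows, against 16.6% of 32851 windows of all genes, and GCGTG in 52.4%, against 28.2%. Either form was present in 81.0%, against 38.6%. Among windows of at least 60% GC, ACGTG was in 69.6% of the set's windows, against 23.0% of all such windows, while GCGTG was in 56.5%, against 53.9%, so little of the difference in GCGTG was left at that GC content. The set was listed for known roles in glycolysis and the response to low oxygen, so an excess of this element is not independent evidence. Windows of the same gene, such as the 4 of Pfkm, were counted separately. A match is a description of letters and not a binding site. Ldha and Bnip3 had the most matches in a single window, 5 each. The Ldha window is shown for its ACGTG matches, and those of Adm, Hk1 and Eno1 because these are the called genes with an entry, on the strand of the gene, with capitals at each match (ACGTG or GCGTG, or their reverse complements CACGT and CACGC). In Ldha the 5 matches to ACGTG include 2 pairs that overlap in CACGTG, which reads the same on both strands.
Ldha, chr7:46845554-46845803, plus strand: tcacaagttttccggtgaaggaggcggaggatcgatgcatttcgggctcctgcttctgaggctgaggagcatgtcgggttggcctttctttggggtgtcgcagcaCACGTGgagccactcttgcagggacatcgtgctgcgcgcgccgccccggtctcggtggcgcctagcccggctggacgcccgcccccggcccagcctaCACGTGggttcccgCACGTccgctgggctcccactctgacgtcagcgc
Adm, chr7:110627407-110627656, plus strand: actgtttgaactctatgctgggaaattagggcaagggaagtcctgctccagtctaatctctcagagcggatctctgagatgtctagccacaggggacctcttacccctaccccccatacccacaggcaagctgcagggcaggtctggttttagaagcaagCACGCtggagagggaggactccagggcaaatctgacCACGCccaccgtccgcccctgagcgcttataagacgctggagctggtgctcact
Eno1, chr4:150236947-150237196, plus strand: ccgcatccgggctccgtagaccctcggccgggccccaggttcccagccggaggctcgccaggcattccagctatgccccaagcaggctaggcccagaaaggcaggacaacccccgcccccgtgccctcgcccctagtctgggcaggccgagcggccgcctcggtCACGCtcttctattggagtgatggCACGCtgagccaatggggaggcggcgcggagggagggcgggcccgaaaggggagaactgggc
Hk1, chr10:62340422-62340671, minus strand: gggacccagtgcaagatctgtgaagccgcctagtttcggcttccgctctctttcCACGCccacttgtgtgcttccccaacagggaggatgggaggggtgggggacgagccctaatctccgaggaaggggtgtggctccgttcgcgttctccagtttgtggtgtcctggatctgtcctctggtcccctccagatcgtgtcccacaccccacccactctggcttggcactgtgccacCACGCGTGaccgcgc

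Counted from the start site, the GCGTG matches of Adm begin at positions -90 and -54, those of Hk1 at -196, -15 and -12, and those of Eno1 at -86 and -62. These 3 windows, unlike that of Ldha, hold GCGTG and no ACGTG, but each was picked as the window of its gene with the most matches. Hk1 had 2 windows, of which only 1 held either form. Eno1 had 3 windows, all 3 with a match, and Adm had 1. Adm and Hk1 were called lower while Eno1 was called higher.

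Neighbouring genes of the pathway were read from the same test. Of 25 other hypoxia-induced genes, 6 were called (24%, against 9.4% of all genes), 1 higher and 5 lower. Ddit4, a stress-induced inhibitor of mTOR signalling, had log2 ratios of -1.52 and -2.21 in miR-23b/27b/24 cells, against 0.47 and 0.90 in vector cells, a log2 fold change of -2.55 ± 0.29 (SE, n = 2 per group, limma adjusted p = 0.0142). Car12, a second membrane carbonic anhydrase, was 2.39-fold lower (limma adjusted p = 0.0190). Selenbp1, a selenium-binding protein whose probe may also read a close paralog, was 14.3-fold higher (limma adjusted p = 0.00250). As a list, these 25 genes had a median log2 fold change of -0.17. The list was drawn up with earlier results of these arrays known, so its count is not independent evidence of a direction.

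Among 12 HIF regulators 1 was called (8.33%, against 9.4% of all genes), the prolyl hydroxylase Egln2, 1.73-fold higher (limma adjusted p = 0.0289), while Arnt, the partner of the HIF alpha subunits, had a log2 fold change of 0.00 and Vhl, which recognises hydroxylated HIF, one of 0.26. None of 20 further glucose and lactate transporters and isoenzymes was called by limma, and 6 of them (30%) had an unadjusted p under 0.05, against 27.7% of all genes. The count for the 11 genes of pyruvate dehydrogenase and pyruvate transport was 0 as well, with 2 (18.2%) at an unadjusted p under 0.05. H6pd, an endoplasmic reticulum enzyme of the pentose phosphate route, was 2.14-fold higher (limma adjusted p = 0.0324), the 1 called gene of 7 (14.3%). G6pc3, a ubiquitous glucose-6-phosphatase, was 1.93-fold lower (limma adjusted p = 0.0182), the 1 called gene of 5 (20%) in gluconeogenesis. In lists this short, 1 call says little beside the share of all genes.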

How the data were processed

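Two-colour Agilent arrays of 4 RNA samples were analysed, 2 of miR-23b/27b/24 cells and 2 of vector cells, all on 1 slide and without a dye swap. Spots were quantified by Agilent Feature Extraction 9.5.3.1, which wrote mean signal and local background as intensity (per the file headers). The same files, as deposited, carry a log10 ratio of red over green after dye correction. Log2 values fill the authors' series table. They are the Feature Extraction ratios centred on each probe's median, with 87.3% to 87.8% of values within 0.001; column medians were 0.0221 and -0.0149 for miR-23b/27b/24 and 0.0133 and -0.0172 for vector.

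Mean signals were background-corrected by normexp (offset 50) and normalised by loess within arrays in R 4.3.3 with limma 3.58.1. Outlying local backgrounds (1782 to 1976 spots per array in Cy5) were first set to the array median, which followed an earlier analysis with both results known. How repeated spots and missing values were treated was chosen to match that analysis. Control and outlier spots were left out. Of 41174 probes, 22951 took their name from RefSeq (GRCm38.p6) by accession, 6659 by symbol and 3109 by synonym, and 8455 kept the deposited name. A probe was kept where its Cy5 signal was well above background on each array of either group (30038 with a value on every array), and the brightest probe stood for each of 20500 genes. The test was lmFit with eBayes in limma, on 2 residual degrees of freedom plus 2.83 from the prior, with Benjamini-Hochberg adjustment and a threshold of 0.05. The procedure was tested on 10 simulated datasets. It recovered 0% of log2 changes of 0.5, 4% of those of 1, 81.2% of those of 2 and 96.6% of those of 4. Of its calls there, 4.27% were false. A gene that did not pass the test may therefore still differ by 2-fold or less.

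The members and lists were chosen with earlier results of these data known. Values are given on every array for called members, for members whose groups do not overlap and differ by at least 2-fold and for the largest change of each role; Car9, Hif1a, Hk2, Pkm2 and Gapdh were added after their values were seen, as were the GC split, the promoter length and the choice of Ldha. From other lists, at most 4 called genes are named, and the genes named beside them were added. Some genes that this rule names are not reported here. Alternatives were other background, scaling, filter and probe choices, a replicate block and each array left out. The number of arrays limits the precision.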

Additional observations from a re-analysis of the deposited data

How the results depend on the processing

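Of 14 alternatives, Ndrg1 was called in all, Adm in 12, Eno1 in 10 and Hk1 in 5. These counts hold the authors' deposited values and the Feature Extraction log ratio as separate alternatives. Both gave nearly identical log2 fold changes (Hk1 -0.85 in each), so they are in effect the same choice. With every local background as measured, 635 of all genes and 2 of the set were called, against 1927 and 4. With median centring in place of loess the counts were 1263 and 2. In both cases the 2 were Ndrg1 and Adm, both lower, so the split of 1 higher and 3 lower became 0 and 2. Slc16a3 turned to -0.35 with every background as measured, and with median centring Gpi1 turned to -0.0017, Aldoa to -0.18, Pgam1 to -0.20 and P4ha1 to 0.0198 in log2 fold change. The cause was not tested.

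With 1 array left out, the lone array was assumed to vary like the other group. Counts of calls in such fits therefore also reflect which pair supplied the spread. The alternatives counted above include these fits. The genes called ran from 222 to 4487, those of the set from 1 to 10 and those of the other pathway lists from 1 to 16, against 9 with all arrays. The log2 fold changes that changed sign ran from -0.11 to 0.61 for Pdk1, -0.0364 to 0.42 for Slc2a1, -0.58 to 0.12 for Pfkl, -0.98 to 0.0225 for Pfkp, -0.12 to 0.27 for Pfkfb4, -0.33 to 0.53 for Aldoa, -0.0804 to 0.97 for Tpi1, -0.50 to 0.25 for Pgk1, -0.41 to 0.45 for Pgam1, -0.13 to 0.50 for Ldhb, -0.0823 to 0.27 for Slc16a3, -0.65 to 0.37 for Bnip3, -0.28 to 0.21 for P4ha1 and -0.0479 to 0.79 for Plod2.

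The replicate gaps of the groups correlated at 0.0465 across genes, so no gap shared by replicate number was seen. This cannot show whether the replicates were made in pairs, which the labels do not say. With the replicate number as a block, 1790 genes and 4 of the set were called. These were Ndrg1, Adm, Eno1 and Ldha (limma adjusted p = 0.0487), and Hk1 had an adjusted p of 0.0535.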
